A study of Oryza sativa with 18 samples.

Results

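The regions described here are the stretches of the rice genome in which an R-loop peak was called in every one of 17 libraries. Peaks of the 17 lists that overlapped by at least 1 bp were merged, a merged region was kept when each list had a peak in it, and regions that touched a peak of the library labelled RNaseH were dropped. This gave 9400 member regions out of 89277 merged regions (10.5%). Together they covered 10.6 Mb of the 59.6 Mb of merged sequence (17.7%) and held 174847 of the 812807 peaks (21.5%). The members were chosen by the presence of peaks in these lists, so that presence is a description here and carries no test. It also favoured high-scoring and wide peaks.

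An R-loop forms when an RNA pairs with the template DNA strand and leaves the other strand unpaired. RNase H cuts the RNA of such hybrids, which is why it serves both as a tool to open them and as a control that removes them. R-loops are found from bacteria to plants and animals, mostly where transcription runs, and in plants they have been mapped around gene starts and along gene bodies in sense and antisense orientation. ISRH-seq, the assay of the series, labels hybrids on purified and sonicated DNA: RNase H and DNA polymerase I together replace the RNA with biotinylated DNA, which is captured on streptavidin and sequenced as single strands.

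All libraries came from wild-type (WT) rice seedlings, whose age the labels do not state. In the input series the fragmented DNA amounted to 8 µg, 5 µg, 3 µg, 1 µg, 500 ng or 250 ng, with 2 libraries each, or to 100 ng, with 1 library. These amounts come from the titles, and the 1 µg amount is absent from the list in the labels' protocol. The replicate numbers inside the peak names of the 3 µg lists are crossed against the titles, which were followed here. The salt group (2 libraries) came from seedlings in 150 mM NaCl for 3 days. The CK(salt) group (2 libraries) has the same entry under treatment as the salt group and is taken as its control from its title only. The RNaseH library is single, and the input amounts of the RNaseH, salt and CK(salt) libraries are not given. Nothing states that libraries of a group came from separate plants, so the p-values below measure the spread between libraries, which may be technical. Whole seedlings were used, so fewer cells with an R-loop and shorter R-loops per cell cannot be told apart.

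The lists hold no read counts. Background coverage solved from the fold and the p-value of each summit ranged from 3.88 to 12.7 reads in 16 of the 17 libraries and was 0.881 in the 100 ng library, which also had the shortest list (14845 peaks against 32861 to 70518). The RNaseH list held 123 peaks at a background coverage of 3.11. The lists carry a code per library in the peak names, and libraries with consecutive codes formed 9 runs. What the codes stand for is not stated. Each salt library has a CK(salt) library of the same replicate number in its run.

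The 100 ng library decided most of the near misses. A further 7559 regions had a peak in 16 of the 17 libraries, and 5806 of these (76.8%) lacked only the 100 ng library. Another 792 lacked only 250 ng replicate 1, and 295 and 198 lacked only salt replicates 1 and 2. Just inside the rule, the members had a median score percentile of 85.4 within their lists and a median region width of 1038 bp. Just outside it, the regions in 16 libraries had 69.2 and 960 bp. Without the 100 ng library the same rule kept 15199 regions. Seen from the other side, 66.0% of the peaks of the 100 ng list lay in members, against 14.8% to 22.8% in the 12 other input lists, 31.2% and 29.6% in the salt lists and 19.8% and 25.3% in the CK(salt) lists. When each list was limited to its 14845 best peaks, 2217 regions passed, and 2217 members (23.6%) overlapped one. The shortened lists are parts of the full lists, so this overlap follows from the rule and is no support for it.

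**Figure D1:**
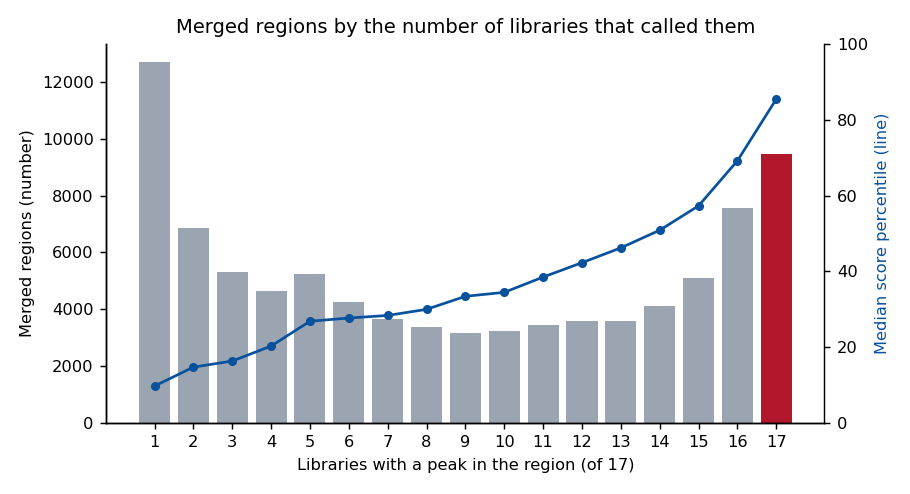
Bars give the number of merged regions (left axis) by the number of the 17 libraries with a peak in them, and the line gives the median percentile of the peak score within its list (right axis). The counts fell from 12702 regions in 1 library to 3155 in 9 and were higher again at 17 (9467 before the RNaseH filter), while the median percentile ran from 9.70 to 85.5.

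The RNaseH filter took out few regions. Of 9467 regions called in all 17 libraries, 67 (0.708%) overlapped 75 of the 123 RNaseH peaks, and 28 of the 67 lay on chromosome 12, with none on chromosomes 2, 5 and 6. The 67 had a median score percentile of 89.1 (interquartile range 81.3 to 98.7), against 85.4 for the members. Of the 100 top regions by median percentile 12 were excluded, and only 1 member had a higher median percentile than the lowest of the 5 named next. The 5 with the highest percentiles were chr1:33520459-33522461 (99.998), chr12:8530935-8533334 (99.997), chr11:16542780-16545283 (99.995), chr12:21599995-21600419 (99.992) and chr11:12164435-12164921 (99.982). Only 25 members (0.266%) lay within 10 kb of an RNaseH peak. Absence of a peak in a single library of lower coverage than most does not measure how far a member lost signal after RNase H.

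For most members the summits of most libraries lay close together. The best summit of a member lay a median of 20 bp (interquartile range 12 to 34 bp) from the member's median summit over the 17 libraries. The deviation was under 50 bp for 8023 members (85.4%). The bases covered by all 17 lists, called the core here, had a median of 242 bp (190 to 332 bp) among the 8545 members that had a core, or 25.4% of the merged region. The other 855 members (9.10%) had a peak in each library but no base that all 17 covered. Those members were wider (median 1387 bp against 1007 bp), and 248 of them (29.0%) were a single peak in every library, against 71.1% of the members with a core. Over all 17 libraries the farthest summits of a member were a median of 303 bp apart. They lay within 100 bp in 13.9% of members and more than 500 bp apart in 2800 (29.8%). The label of constitutive R-loops therefore holds for a shared base in 8545 of the 9400 regions.

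Core length followed the score, and region width did not. With the members divided into 4 equal groups by score percentile in the input lists, the median core (0 for members without one) was 151.5, 208, 245 and 318.5 bp from the lowest to the highest group. The share of members with no core was 23.3%, 9.36%, 3.11% and 0.638% in the same order. The median region width of the 4 groups stayed between 1022.5 and 1064 bp. Across members, region width and median percentile had a Pearson r of -0.01 (9400 members of the same libraries, a description). Region widths ran from 313 to 5161 bp, with 418 members (4.45%) over 2 kb and 103 (1.10%) under 500 bp.

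The members with the longest cores were chosen on bases shared by all 17 lists, which favours a stable width. The region chr6:16657801-16659346 had a core of 1297 bp. Its width was 1326 bp at the lowest (100 ng), 1457 bp at the median and 1517 bp at the highest (8 µg replicate 2), so all 17 libraries lay close together. In the salt libraries it was 1435 and 1359 bp wide, against 1508 and 1474 bp in CK(salt). The next cores were chr1:4232029-4234052 (1178 bp), chr7:29268587-29270166 (1147 bp), chr9:3992943-3994441 (1135 bp) and chr7:14824250-14825664 (1127 bp). Their widths over the 17 libraries ran from 1277 to 2006 bp, 1148 to 1553 bp, 1135 to 1440 bp and 1166 to 1398 bp in that order, so the first of these varied most.

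The highest-scoring member was chr10:8053296-8054497. Its median percentile over the 17 lists was 99.991, and it stood above the 99th percentile in all 17. The authors' fold over local background at its summit ran from 9.60 to 22.3, with a median of 17.2. Its width was 771 bp in the 100 ng library, 956 bp at the median and 1104 bp at the highest, in 250 ng replicate 1. The salt libraries gave 928 and 1000 bp and the CK(salt) libraries 942 and 1013 bp, so these groups overlapped. The next by score were chr3:358932-359780 (99.923), chr2:1154617-1155891 (99.918), chr4:8453546-8454435 (99.914) and chr8:260425-261279 (99.913). After them came chr6:13978770-13979901 (99.902), chr4:15515833-15516429 (99.884), chr11:27879574-27880279 (99.881), chr12:8792153-8793442 (99.878) and chr7:29268587-29270166 (99.869). The narrowest of these was chr4:15515833-15516429, at 342 to 597 bp. The third, chr2:1154617-1155891, reached only the 71.4th percentile in 5 µg replicate 2 and was 409 to 1203 bp wide. A high median score thus did not mean a high score in every library. Neither labels nor lists name the build of these coordinates, and no genes or sequences were assigned to them.

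Members lay on all chromosomes at similar density. There were 25.2 members per Mb over 12 chromosomes, from 20.9 on chromosome 11 and 21.6 on chromosome 4 to 28.6 on chromosome 3. Members made up 9.44% (chromosome 11) to 11.2% (chromosome 9) of all merged regions of a chromosome. Chromosome 4 was low on both scales (9.62% of its regions). Median region width per chromosome ranged from 982 bp (chromosome 10) to 1061 bp (chromosome 5). No replicate error belongs to these counts, since each member rests on all 17 lists, and they carry no test.

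By arm, the right arm of chromosome 3 was the densest, with 30.1 members per Mb (525 members), and the left arm of chromosome 4 the sparsest, with 19.1 (191 members). The left arm of chromosome 10 (20.4 per Mb) and both arms of chromosome 11 (21.1 left and 20.8 right) followed. All merged regions numbered 265 per Mb on the right arm of chromosome 3 and 179 on the left arm of chromosome 4. Members made up 11.4% and 10.7% of these, against 10.5% over all chromosomes. The 12 longer arms held 25.6 members per Mb and the 12 shorter arms 24.6, and the longer arm was the denser on 8 of the 12 chromosomes. All merged regions were also denser on the longer arms, at 246 against 229 per Mb. The share of regions that were members was 10.4% on the longer and 10.8% on the shorter arms. Arms were divided at whole-megabase centromere positions from general knowledge, since the lists give none. Moving all boundaries by 1 Mb in either direction left the longer arm denser on 8 or 9 chromosomes. The short left arm of chromosome 9 stood apart in share: 78 of its 542 regions were members (14.4%).

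**Figure D2:**
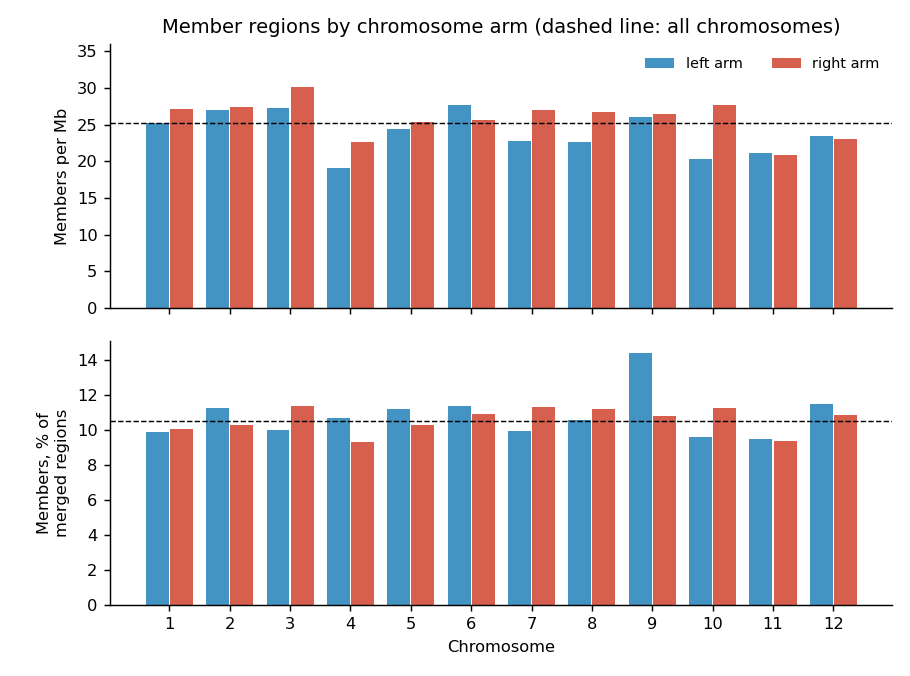
Member regions per Mb (top) and as a percentage of all merged regions (bottom) for the left and right arm of each chromosome, with the value over all chromosomes dashed. Density ran from 19.1 per Mb (chromosome 4, left) to 30.1 (chromosome 3, right), and the share was highest on the left arm of chromosome 9 (14.4%).

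Along the arms the members were spread more evenly than the other regions. In steps of 20% of each arm, from the arm boundary outwards, members numbered 23.9, 24.4, 25.6, 26.2 and 25.9 per Mb. All merged regions numbered 194, 230, 255, 264 and 253 per Mb over the same steps. The share of regions that were members was therefore 12.3% next to the boundary and 9.93% to 10.6% in the other 4 steps. Every one of the 367 full windows of 1 Mb held members, from 8 to 39 with a median of 25. The 5 windows with 39 members started at 27000001 on chromosome 1, 20000001 on chromosome 3, 23000001 and 25000001 on chromosome 7 and 20000001 on chromosome 9. The window with fewest members, 8 among 155 merged regions, started at 9000001 on chromosome 5.

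Neighbouring members were mostly far apart. The median distance between facing ends was 25.6 kb (interquartile range 11.5 to 50.7 kb), against 2.13 kb between neighbouring merged regions of all kinds and 31.7 kb between regions called in 16 libraries. Of the 9388 distances, 1.08% were under 1 kb and 674 (7.18%) exceeded 100 kb. With members within 5 kb of each other joined into chains, 7994 members (85.0%) stood alone and no chain held more than 4 members. Among the chains of 4 were chr2:8088746-8103608, chr3:22622797-22639772 and chr6:6480217-6494387.

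The longest stretch without a member was 619.8 kb, at chr11:12020218-12640003 next to the arm boundary. It was followed by chr6:18226301-18798897 (572.6 kb), chr8:6758305-7303526 (545 kb), chr4:14187946-14727461 (539.5 kb) and chr3:13237788-13674422 (437 kb). These stretches were not without R-loops: they held 29, 14, 12, 38 and 59 merged regions that were called in fewer libraries or dropped by the RNaseH filter. Only the first lay within 1 Mb of an arm boundary.

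The same regions had different widths at different input amounts, and the lowest amount stood apart. The bases under peaks per member had a median of 848 and 807 bp in the 8 µg libraries, 668 and 756 bp at 5 µg, 687 and 718 bp at 3 µg and 755 and 721 bp at 1 µg. At 500 ng the medians were 693 and 692 bp, at 250 ng 632 and 699 bp and at 100 ng 307 bp. The 2 libraries of 8 µg were thus the widest and the 100 ng library the narrowest, while the libraries from 5 µg to 250 ng overlapped. As means these were 827.5 ± 29.0 bp (SD, n = 2) at 8 µg, 712 ± 62.2 bp (n = 2) at 5 µg and 665.5 ± 47.4 bp (n = 2) at 250 ng. Per member, the 100 ng peak covered a median of 40.9% of its 8 µg width, and the 100 ng library was the narrowest of the 13 in 7653 members (81.4%). The 100 ng peak lay within the extent of the 8 µg peaks in 96.3% and 96.9% of members, which reached a median of 165 and 153 bp farther on the left and 162 and 152 bp farther on the right. These medians over unoriented sides do not show whether a single member narrowed on both.

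**Figure D3:**
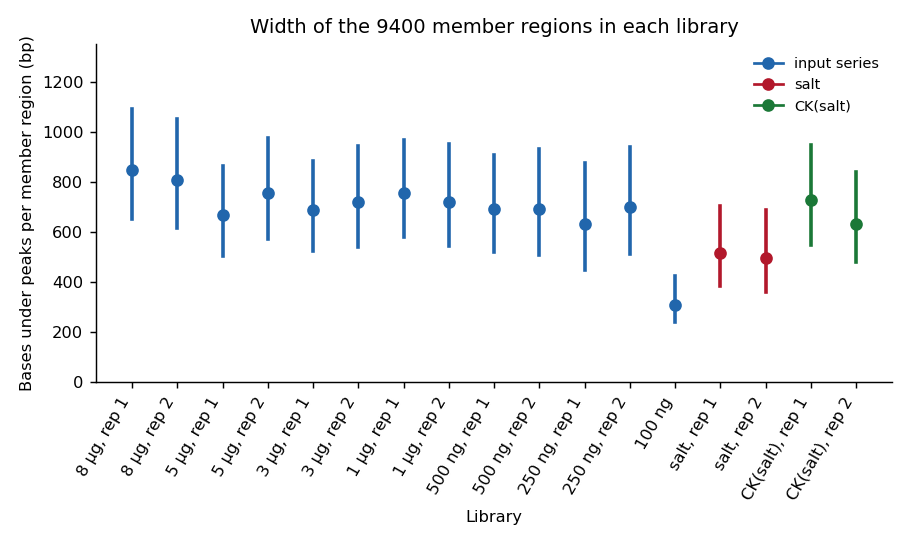
Median width (points) and interquartile range (lines) of the bases under peaks in the 9400 members for each library, coloured by experiment. The 100 ng library (307 bp) and the salt libraries (516 and 497 bp) lie below all others, and the 8 µg libraries (848 and 807 bp) lie highest.

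Over the 13 input libraries the median width was related to the log2 of the input amount (Pearson r = 0.714, Spearman rho = 0.670, adjusted permutation p = 0.00135 for r and 0.0148 for rho, 2-sided, over 3 relations). The relation rested on the extreme libraries. Without the 100 ng library r was 0.646 (adjusted permutation p = 0.0207), and without it and either 8 µg library r was 0.558 or 0.572 (adjusted permutation p = 0.0727 and 0.0562). Background coverage moved with width more closely than input did (r = 0.962 over 13 libraries, 0.836 without 100 ng), and with coverage held constant r with input was 0.05 (adjusted permutation p = 0.883). Within the 3 runs of codes that hold more than 1 amount, r was -0.26 (8 libraries, exact p = 0.556). The values there were 668 bp (5 µg), 687 bp (3 µg) and 693 bp (500 ng) in the first run, 756 bp (5 µg), 718 bp (3 µg) and 755 bp (1 µg) in the second, and 721 bp (1 µg) and 692 bp (500 ng) in the third.

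In the full lists, members were split into more peaks at higher input. The number of peaks per member was 1.10 ± 0.0148 (SD, n = 2) at 8 µg, 1.12 ± 0.00812 at 5 µg, 1.12 ± 0.0175 at 3 µg and 1.10 ± 0.0129 at 1 µg. It was 1.07 ± 0.0159 at 500 ng, 1.06 ± 0.00196 at 250 ng and 1.04 in the single 100 ng library. The relation to log2 input was r = 0.853 (rho = 0.814, adjusted permutation p = 0.00126) and held with coverage held constant (r = 0.783, adjusted permutation p = 0.00273). Within the runs of codes it was 0.860 (8 libraries, exact adjusted p = 0.125). The order was different in lists of equal length (14845 peaks each, 2217 members). There the 100 ng library had the most peaks per member (1.068), against 1.014 and 1.016 at 8 µg and 1.015 and 1.013 at 250 ng. The relation to input was not fitted in those lists.

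Summits strayed most in 250 ng replicate 1 and not at 100 ng. The median distance of a member's best summit from its median summit was 13 and 12 bp at 8 µg, 16 and 15 bp at 5 µg, 15 and 17 bp at 3 µg and 13 and 21 bp at 1 µg. The 500 ng libraries had 22 and 45 bp, those of 250 ng 86 and 42 bp and the 100 ng library 28 bp. The relation to log2 input was r = -0.64 (rho = -0.85, adjusted permutation p = 0.00857 for r), and with coverage held constant r was -0.75 (adjusted permutation p = 0.00219). Within the runs of codes it was -0.38 (8 libraries, exact adjusted p = 0.333). The reference position is the median of all 17 libraries, most of which had 1 µg or more or no stated amount. In 250 ng replicate 1 the best summit was more than 200 bp off in 31.8% of members, against 5.26% and 5.62% at 8 µg.

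Individual members differed in the direction of this change. limma was fitted to the log2 width over the log2 input for all 10129 regions with a peak in the 13 input libraries, 92.8% of which were members. With all 13 libraries, 4786 members rose in width with input and none fell at an adjusted p under 0.05, against 49.7% of all tested regions rising and 0.00987% falling. The unadjusted limma p was under 0.05 in 5501 of the 9400 members and in 5798 of the 10129 regions tested. Without the 100 ng library 3305 members rose and 925 fell, against 34.2% and 10.3% of the regions tested. After centring each of the 13 libraries on its median width, 531 members rose and 825 fell, where the median slope over all tested regions moved from 0.11 to -0.01 log2 units per doubling of input. With background coverage as a covariate in all 13 libraries, 879 rose and 877 fell. The members' shares lie near those of all tested regions, nearly all of which are members.

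The 2 classes without the 100 ng library were as follows. In the 3305 members that rose, the median width was 861 and 886 bp at 8 µg, 697 and 817 bp at 5 µg and 713 and 788 bp at 3 µg. It was 756 and 616 bp at 1 µg and 599 and 543 bp at 500 ng. The 250 ng libraries had 460 and 539 bp. In the 925 that fell, it was 737 and 578 bp at 8 µg, 559 and 547 bp at 5 µg and 572 and 531 bp at 3 µg. It was 644 and 987 bp at 1 µg and 948 and 1070 bp at 500 ng. The 250 ng libraries had 1045 and 1071 bp. These libraries chose the classes, so the values are a description. The 1 µg libraries went apart: replicate 2 was wider than replicate 1 in 841 of the 925 members that fell (90.9%) and in 292 of the 3305 that rose (8.84%). In the falling class, 1 µg replicate 1 (644 bp) lay among the libraries of 8 to 3 µg (531 to 737 bp). Replicate 2 (987 bp) lay among those of 500 and 250 ng (948 to 1071 bp). The step between these levels also appeared inside a run of codes, where 5 µg and 3 µg had 559 and 572 bp and 500 ng had 948 bp. Its cause was not tested. All 925 were also called falling in the 12 libraries after centring, and 318 with background coverage as a covariate. Of the 3305 that rose, 1626 were called after centring and 461 with the covariate. Centring lowered every slope by the same amount, which favours falling calls, so the 925 kept are no independent support.

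Libraries that took no part in this fit were narrow in the falling class. The 100 ng library had 287 bp there, close to its 307 bp over all members. The CK(salt) libraries had 539 and 510 bp against 728 and 633 bp over all members, and the salt libraries 409 and 409 bp against 516 and 497 bp. The falling members were wide as merged regions (median 1292 bp against 959 bp in the rising class) and their scores were like the rest (median percentile 87.9 against 85.4 over all members). They made up from 6.57% (chromosome 12) to 11.3% (chromosome 3) of the members of a chromosome.

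In most of the falling members the extra width lay mainly on a single side. From the libraries of 8, 5 and 3 µg to those of 500 and 250 ng, the median change on the side that moved most was 444.5 bp outward, and on the other side -54.5 bp, which is inward. The larger change was at least 4 times the smaller in 73.8% of them, against 34.4% of the rising members and 37.1% of all members. These libraries also took part in choosing the classes, and the larger side was picked in each member. Both choices can favour a large ratio in the falling class, so the shares are a description and carry no test. The left side was the larger in 51.0% of the falling members, so neither chromosome direction prevailed. In the rising class both ends lay farther in at 500 and 250 ng, with median changes of -150 bp and -55 bp. Strand is not given in the lists.

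**Figure D4:**
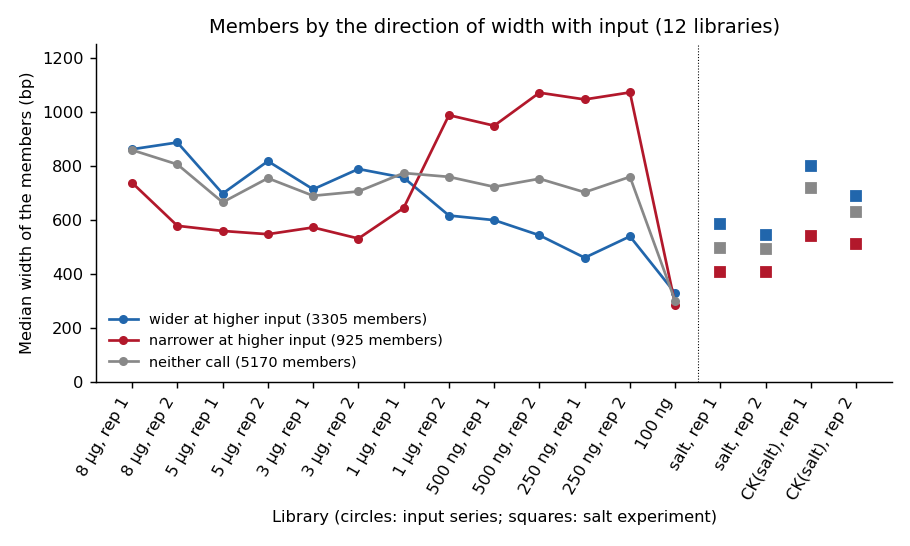
Median width (bp) of the members in each library for the 3305 members that were wider at higher input, the 925 that were narrower and the 5170 with neither call, by limma on the 12 input libraries without 100 ng (circles, input series; squares, salt experiment). The falling class lies at 531 to 737 bp from 8 to 3 µg and at 948 to 1071 bp at 500 and 250 ng, with the step between the 1 µg libraries, and is the narrowest class in the salt and CK(salt) libraries.

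The member with the steepest rise was chr5:1993407-1995443. It was 1737 and 2037 bp wide at 8 µg, 1270 and 1623 bp at 5 µg, 1917 and 1626 bp at 3 µg and 1271 and 440 bp at 1 µg. The 500 ng libraries had 558 and 495 bp, those of 250 ng 339 and 513 bp and the 100 ng library 241 bp. The slope was 0.47 ± 0.06 (SE) log2 units per doubling of input (limma, adjusted p = 0.000524). The next were chr2:8114415-8116203, chr9:20778051-20779970, chr4:26298887-26300951 and chr12:16092194-16094231, with slopes of 0.45 to 0.46. Without 100 ng and with coverage as a covariate, chr2:8114415-8116203 lost its call (limma, slope 0.41, adjusted p = 0.0817). Of the 5, only the last had a core, of 147 bp. In these regions the 500 and 250 ng libraries saw a part of what the 8 µg libraries covered.

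No member fell over all 13 libraries, so the steepest falls are named from the fit without 100 ng. In chr4:5596822-5599532 the width was 649 and 495 bp at 8 µg, 404 and 483 bp at 5 µg, 493 and 541 bp at 3 µg and 503 and 2269 bp at 1 µg. The 500 ng libraries had 1729 and 2597 bp, those of 250 ng 2605 and 2693 bp and the 100 ng library 251 bp. The salt libraries gave 370 and 349 bp and the CK(salt) libraries 418 and 447 bp. All 17 lists shared a core of 251 bp there, near the right end of the region, and the slope was -0.54 ± 0.09 (SE; limma, adjusted p = 0.00214). With the 100 ng library in the fit the slope was -0.26 and the call was lost (limma, adjusted p = 0.145). The others were chr4:20211093-20212961 (-0.54), chr6:7067153-7069629 (-0.53), chr9:9781309-9783501 (-0.51) and chr12:364324-367746 (-0.50). All 5 were between 1720 and 3224 bp wide in the 250 ng libraries.

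The members' median width was lower in both salt libraries than in both CK(salt) libraries. It was 516 and 497 bp in the salt libraries and 728 and 633 bp in CK(salt), so the groups did not overlap. The means were 506.5 ± 13.4 bp (SD, n = 2) and 680.5 ± 67.2 bp (n = 2), a difference of -174 bp (exact permutation test, 2-sided, p = 0.333, the smallest p this design allows). Within the runs of codes, which hold 1 library of each group, the differences were -212 bp (replicate 1) and -136 bp (replicate 2). Background coverage was 6.74 and 3.88 in salt and 8.60 and 4.30 in CK(salt), lower in the salt library of each run. The part of coverage in the difference was not tested.

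Both salt libraries were narrower than both CK(salt) libraries in 6160 members (65.5%), against 61.6% of the 22881 regions with a peak in all 4 libraries. Both were wider in 63 members (0.670%), against 0.948%. The shares of the members lie near this background. The median log2 ratio was -0.33 over members and -0.37 over all regions tested. The ratio was below 0 in 8911 members (94.8%), against 93.1% of all regions tested. In limma, no member was called wider or narrower at an adjusted p under 0.05, nor was any of the other regions (0.0% in each direction). The unadjusted limma p was under 0.05 in 1533 of the 9400 members and in 4052 of the 22881 regions tested. With each library centred on its own median over all regions tested, the members' median ratio was 0.14, against 0.11 over all those regions. Centring raised every ratio by the same amount, too small to turn the 10 members named below for salt, so their kept direction is no test.

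**Figure D5:**
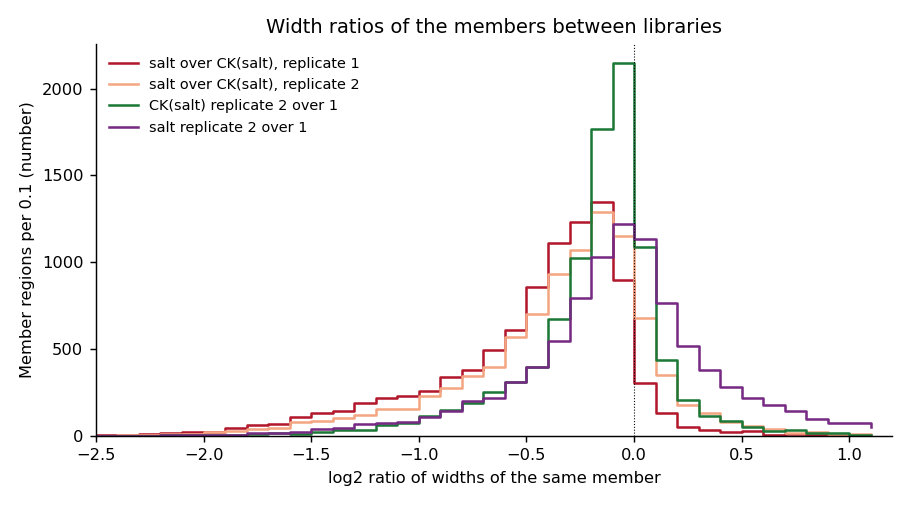
Number of member regions by the log2 ratio of their widths, in steps of 0.1 between -2.5 and 1.2, for salt over CK(salt) in each replicate and for the 2 libraries within each group. The medians were -0.35 and -0.26 for salt over CK(salt) in replicates 1 and 2, -0.12 for CK(salt) replicate 2 over 1 and -0.05 for salt replicate 2 over 1.

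The rule puts the salt and CK(salt) peaks of a member in the same merged region, so their closeness is partly fixed. The values that follow are a description, with no other regions set beside the ends and summits. Over both libraries of a group, the outer ends of the salt peaks lay inside those of CK(salt) in 69.2% of members and the reverse was so in 2.91%. The mean ends of the groups differed by a median of 48.3 bp inward on the left and 47.8 bp on the right. Best summits lay a median of 26 bp apart between a salt and a CK(salt) library, against 21 bp between the CK(salt) libraries and 32 bp between the salt libraries. By score in the input lists, the median log2 ratio was -0.42, -0.37, -0.32 and -0.26 in the 4 groups from lowest to highest. The share of members with both salt libraries narrower than both CK(salt) libraries did not follow this order, at 61.9%, 66.6%, 66.6% and 67.1%. By region width the median log2 ratio ran from -0.29 in the narrowest group to -0.43 in the widest. Region width takes in the peaks of this ratio: the CK(salt) libraries set 10.9% and 3.57% of member ends, the salt libraries 2.13% and 1.28%. The grouping can therefore favour lower ratios in wide members. By chromosome the median was between -0.31 (chromosome 2) and -0.36 (chromosome 3), so no chromosome stood apart. The classes by input slope had similar ratios, -0.32 in the rising and -0.31 in the falling class.

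The largest narrowing among members with no overlap was at chr12:7314098-7316260, with 331 and 195 bp in salt and 1477 and 1344 bp in CK(salt). Its log2 ratio was -2.47 ± 0.31 (SE; limma, adjusted p = 0.119). The region was 1173 to 1837 bp wide in the input libraries other than 100 ng, where it was 224 bp. The salt libraries and the 100 ng library therefore saw a part of it, and no base was covered by all 17 lists. The next were chr3:35967010-35968743 (233 and 196 against 1382 and 1016 bp), chr5:18576755-18579448 (219 and 260 against 1550 and 1000 bp), chr8:28147939-28149482 (249 and 197 against 1370 and 900 bp) and chr5:4219813-4221511 (303 and 202 against 1387 and 987 bp). None of them passed the limma threshold (adjusted p = 0.119 for each).

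The largest widening was at chr12:20528655-20530313, with 854 and 934 bp in salt and 495 and 343 bp in CK(salt). Its log2 ratio was 1.12 ± 0.25 (SE; limma, adjusted p = 0.166). It lay 2880 bp from an RNaseH peak, and its summit fold was low, 1.99 to 3.97 with a median of 2.63. In the input series it was 1443, 1383 and 1581 bp wide in 500 ng replicate 2 and the 250 ng libraries and 539 to 856 bp in those from 8 µg to 500 ng replicate 1. The next were chr2:6845149-6846246 (700 and 745 against 537 and 283 bp), chr3:6753947-6755118 (719 and 904 against 537 and 407 bp), chr11:1816596-1818114 (767 and 782 against 608 and 367 bp) and chr12:21791172-21791854 (525 and 462 against 366 and 276 bp). None passed the limma threshold, with adjusted p between 0.166 and 0.305.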

How the data were processed

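Each library is a peak list of MACS2 2.1.4 after alignment with Bowtie2, per the submitters' processing notes. The genome build, the control of the peak calling and the handling of duplicates are not given in the sources used here. The lists were deposited without headers, 1 per library, with peak positions and, per peak, the authors' score (10 times the −log10 q), the fold of the summit over local background as a ratio, and −log10 p-values and q-values; the lowest −log10 q was just above 2 in 17 of the 18 lists. No read counts were used.

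Peaks of 17 lists sharing 1 bp were merged (Python 3.11.15, pandas 2.3.3, numpy 2.4.6). Width in a library is the sum of bases under its peaks in a region. The percentile of a peak is its rank by −log10 q in its list. Coverage was solved from fold and Poisson p. Relations used 100000 permutations, exact tests for up to 8 libraries, and Benjamini-Hochberg over 3 relations. limma 3.58.1 in R 4.3.3 (lmFit, eBayes) was fitted to log2 width, with adjustment over all regions tested at 0.05. The fit was also run on simulated widths with known changes and independent noise. These held no library-wide shifts in width, so that run does not check the fit under such shifts.

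The members, the named regions and the lists were chosen with earlier results of these data known. Named are the 10 members with the highest score percentile, the 5 longest cores, the 5 largest salt ratios each way among groups that do not overlap, the 5 steepest slopes each way, the 5 longest stretches without a member, the 5 windows with most members and the 5 top regions with an RNaseH peak. Alternatives covered the merging, thresholds, libraries, width measure, scaling, coverage, the replicate block and arm boundaries. Replicate numbers were not treated as pairs in the main fits: deviations in log2 width correlated at 0.07 between salt and CK(salt) and from -0.33 to 0.35 over 15 pairs of input amounts. These correlations do not test a pairing of whole libraries, and salt and CK(salt) libraries of the same number share a run of codes.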

Additional observations from a re-analysis of the deposited data

How the results depend on the processing

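The number of members was 9381 to 15199 when a library was left out, the highest without the 100 ng library, and 2217 with lists of equal length. The other 7 settings gave 7253 to 9965. Median spacing was 26.7 kb between region centres. The relation of width to input lost its call without the 100 ng and an 8 µg library (r = 0.558 and 0.572), with background coverage held constant (0.0457, and 0.23 without the 100 ng library as well), and reversed within the runs of codes (-0.26), where the relations of peaks per member (0.860) and summit deviation (-0.38) also missed the threshold. Leaving out any single library gave 0.646 to 0.764 for width, 0.802 to 0.924 for peaks and -0.74 to -0.62 for summits. Peaks per member have no relation among members with a single peak in every library. The salt difference was -221.5 to -126.5 bp without a library and -177.5 to -137.8 bp with other measures.

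In limma, leaving out single libraries gave 3460 to 5439 rising and 0 to 1043 falling regions, and among members 3305 to 5158 and 0 to 925, the highest falling counts without 100 ng. Centring gave 562 rising and 938 falling regions (members 531 and 825). Coverage as a covariate gave 917 and 989 (members 879 and 877). Without 100 ng, centring gave 1710 and 1762 (members 1626 and 1576) and the covariate 483 and 381 (members 461 and 342). The replicate block, which leaves out the unnumbered 100 ng library, gave 3391 and 1026 (members 3239 and 905), and r of 0.654, 0.813 and -0.74 for the relations. It called no region in the salt fit. No other setting called a region there. Of the named slopes, chr2:8114415-8116203 lost its call with the covariate without 100 ng (0.41). The cause of these changes was not tested. The fits without 100 ng with centring or the covariate, coverage held constant without 100 ng, and the overlap counts under other measures were added after seeing the data.

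The main limits are the single 100 ng library, which decides most of the regions missed by 1 library and has the narrowest members, and 2 libraries per group elsewhere. In the input series coverage moves with input amount, and peak width moves with it. In the salt experiment coverage was lower in the salt library of each run, but the groups overlapped. Salt replicate 1 had higher coverage than CK(salt) replicate 2 (6.74 against 4.30) and narrower members (516 against 633 bp). The part of coverage in the salt difference was not tested. The lists give no reads, so no interval can be set on a peak's edge. Membership is a presence in lists and says nothing of R-loop level.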
